A study of Mus musculus with 2 samples.

Results

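Long intergenic noncoding RNA (lincRNA) genes detected in the newborn mouse forebrain were examined here. The members were the autosomal genes that GENCODE M21 classes as lincRNA and that had a TPM (a length-corrected abundance that sums to the same total in each library) of 1 or more in both libraries, with 9 abundant or imprinted genes (Malat1, Neat1, Miat, Pantr1, Rmst, Gm17750, Meg3, Mirg and Rian) left out by name. This gave 201 genes out of 2134 autosomal lincRNA genes and 43346 genes in the deposited gene tables. The members were chosen by the TPM of these same libraries, so their levels are a description. Of the other autosomal lincRNA genes, 1868 were below 1 TPM in both pups, 59 reached 1 TPM in 1 pup, and 6 met the threshold but were left out by name.

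The tissue was the forebrain of newborn B6NCrl mice at postnatal day 0, with no treatment in the labels. The study held 1 group of 2 libraries, 1 from pup 1 (replicate 1) and 1 from pup 3 (replicate 2). The labels name separate pups but give them 1 donor identifier, and sex was not collected. Total RNA longer than 200 nt was taken, 10 ng for each library, and the depth was 40066386 expected counts for pup 1 and 40431595 for pup 3. The cortical neuron gene Neurod6 had 206 and 329 TPM in pups 1 and 3 and the ventral forebrain gene Dlx1 120 and 87.0 TPM, while Hoxa2 and Hoxb4, which mark hindbrain and spinal cord, were listed at 0 in both. Egr2, a further hindbrain gene of the list that other cells also express, had 0.92 and 0.99 TPM. Markers of microglia (C1qb), endothelium (Cldn5), choroid plexus (Ttr) and red cells (Hbb-bs) were also present, with 58.4 to 1335 TPM in either pup. The further listed markers of microglia and endothelium were lower. Cx3cr1 had 9.16 and 4.25 TPM in pups 1 and 3, P2ry12 6.94 and 5.39 TPM, and Pecam1 9.22 and 9.48 TPM. In such tissue RNA, fewer cells of a type and less RNA per cell cannot be told apart. The smallest p of an exact two-sided sign-flip test on 2 animals is 0.5, so none was run, and values are read against the gap from pup to pup.

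LincRNA genes are transcribed by RNA polymerase II, and their RNAs are capped, usually spliced and polyadenylated, but have no recognised long reading frame. Some act as RNA molecules. Others are known for what their locus carries: a microRNA hairpin, a small nucleolar RNA (snoRNA) in an intron, or a start site shared with a neighbouring protein-coding gene. In the brain, microRNA hosts such as those of miR-9 and miR-124 are known from neural progenitors and neurons.

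The microRNAs inside the members come first, because they are the best characterised products of these loci. Of the 201 members, 15 had a microRNA gene within the gene body on the same strand, with 27 annotated microRNA genes in all. A snoRNA or the related scaRNA was found in 8, with 12 annotated genes, and 21 members had either. Some annotated genes share bases: Snora16a is entered more than once, Mir1839 is entered as both a scaRNA and a microRNA, and Mir6516 overlaps the scaRNA Gm26083. Mature sequences were matched for 11 hosts in RefSeq (build GRCm38.p6), giving 40 mature arms, 36 distinct sequences and 31 distinct seeds. A seed is bases 2 to 8 of the mature strand, the part that pairs with target messages, and is in capitals in the sequences shown.

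The neural microRNA miR-9 has 3 gene copies, and the host of each was a member: Gm3764 (Mir9-1), C130071C03Rik (Mir9-2) and Mir9-3hg (Mir9-3). Both arms are shown because the 3 hosts encode the same mature strands, so that all 3 carry the seeds CUUUGGU and UAAAGCU.
miR-9-5p: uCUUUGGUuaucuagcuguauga
miR-9-3p: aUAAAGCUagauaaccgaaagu

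A second set of shared seeds lay in 6720427I07Rik, whose gene body holds Mirlet7d, Mirlet7f-1 and Mirlet7a-1. The let-7 family is known for its rise during development and for repressing progenitor genes such as Lin28. All 3 carry the seed GAGGUAG and differ outside it.
let-7a-5p: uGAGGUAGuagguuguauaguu
let-7d-5p: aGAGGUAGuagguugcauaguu
let-7f-5p: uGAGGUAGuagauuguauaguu

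The oncogenic miR-17 cluster, known for promoting proliferation, lay in Mir17hg. It is shown because its 6 main strands fall into 4 seed groups: miR-17-5p and miR-20a-5p share AAAGUGC, miR-19a-3p and miR-19b-3p share GUGCAAA, and miR-18a-5p and miR-92a-3p have a seed each.
miR-17-5p: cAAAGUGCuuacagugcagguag
miR-20a-5p: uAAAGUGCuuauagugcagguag
miR-18a-5p: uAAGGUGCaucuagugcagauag
miR-19a-3p: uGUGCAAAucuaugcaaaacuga
miR-19b-3p: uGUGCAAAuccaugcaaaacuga
miR-92a-3p: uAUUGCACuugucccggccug

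The hosts of these microRNAs stood at very different levels. Gm3764 had 224 and 153 TPM in pups 1 and 3, Mir9-3hg 82.8 and 82.6 TPM, and C130071C03Rik 50.9 and 48.7 TPM. All 3 miR-9 hosts were thus among the 20 highest members, and the pups agreed closely for Mir9-3hg and C130071C03Rik. Mir17hg, by contrast, had 1.85 and 1.86 TPM, and 6720427I07Rik a mean of 1.52 TPM, both near the threshold. The hosts of miR-124, an abundant microRNA family of neurons, were members as well. Mir124-2hg had 45.7 and 46.8 TPM and Mir124a-1hg 15.3 and 11.7 TPM.

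Mir670hg, which holds Mir670 and Mir129-2, had 16.9 and 15.8 TPM. H19, an imprinted gene that carries Mir675, had 12.1 and 11 TPM. E130102H24Rik, with Mir101a, averaged 6.47 TPM, and 4833445I07Rik, with Mir191 and Mir425, averaged 2.42 TPM; these hosts were found by annotation and are named after their values were seen. Across all 15 microRNA hosts the median of the mean TPM was 13.5, the same as over the 21 hosts of either kind, against 3.46 TPM over the 180 members with no such gene. By annotation 10.4% of the members hosted a small RNA, against 1.77% (33 genes) of the lincRNA genes below 1 TPM in both pups. The count of hosts comes from gene positions, but the groups compared were themselves set by TPM.

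The small RNAs themselves were hardly measured. Of 33 hosted small RNA genes in the gene tables, 28 were at 0 TPM in both pups, and 18 had an effective length of 0, the length left after the fragment length is taken into account. The longest was 193 nt, under the size limit of the RNA used. A host's TPM is therefore a level of its annotated transcripts, not of the mature microRNA or snoRNA.

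Members that host a snoRNA or scaRNA were led by Snhg6, with 120.0 and 187 TPM in pups 1 and 3. Snhg20, which holds a scaRNA, followed with 108 and 142 TPM. Both were higher in pup 3. Snhg12 had 23.7 and 27.3 TPM, Epb41l4aos 24.4 and 27.8 TPM, and Snhg18 2.36 and 2.52 TPM. SnoRNA hosts are known for starting with a run of pyrimidines, the 5′ terminal oligopyrimidine motif of ribosomal protein messages. The first 30 bases of the leading transcripts are shown for 4 of these members (GRCm38 transcripts of GENCODE M21). The unbroken run of C and T at the start, which may begin with either base, is in capitals.
Snhg6-203: CTTTCTCggcagcgccgtagagcgcgagca
Snhg12-206: TTTCTCgcttcatccgcggtccctgtctgt
Snhg18-201: TCCTCTagccccgcctcttcccgagatggg
Snhg20-202: gaagtgcatttgcagagctggttccgccgg

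The run was 7 bases in Snhg6, 6 in Snhg12 and Snhg18, and 0 in Snhg20. In the other 3 hosts examined, which are named after their starts were seen, it was 1 base in 6530403H02Rik and 0 in 2900076A07Rik and 2700038G22Rik, so 3 of 7 had 5 or more. Of the 7, Snhg20 and 2900076A07Rik hold a scaRNA and no snoRNA. Over all leading transcripts, a start of 5 or more pyrimidines was present in 6% of the members (12 of 200 with a sequence), 5.21% of the undetected lincRNA genes with a defined leading transcript and 4.24% of detected protein-coding genes. These counts take any run of C and T and are not counts of the 5′ terminal oligopyrimidine motif itself. An annotated start may also differ from the start used in this tissue.

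Lists of small RNA hosts and long noncoding genes give the wider setting. Of 23 genes listed as snoRNA hosts, 16 were measured and all 16 had 1 TPM or more in both pups. Of these 5 were members, since GENCODE places the others in another class: Gas5, at 365 and 433 TPM, is a processed transcript. Snhg11 and Cwf19l1 are classed as protein-coding and Rmrp as a ribozyme. Of 21 genes listed as microRNA hosts, 16 were measured, 11 had 1 TPM or more in both pups and 7 were members. The 16 include Mir181b-1, itself a microRNA gene, and the 7 include 1700020I14Rik, which held no microRNA gene by annotation. Mir155hg and Mir142hg, hosts known from immune cells, are lincRNA genes that were not members, with a mean of 0.065 TPM for Mir155hg and 0 for Mir142hg in both pups. Of 38 listed neural and developmental genes, 30 were measured, 18 had 1 TPM or more in both pups and 9 were members. Those 9 include Gm42418 and Gm26917, which lie at or beside an 18S ribosomal RNA-related pseudogene and are described below. The rest were 2900097C17Rik, Gm2694, Lhx1os, H19, Pvt1, Dubr and Bvht. Pvt1, the neighbour of Myc, had 9.18 and 7.59 TPM and Bvht 4.29 and 3.73 TPM. Hotair, a HOX cluster lincRNA of posterior tissues, was listed at 0 in both pups.

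The members spanned a wide range and most were low. Their median was 3.98 and 3.14 TPM in pups 1 and 3 (3.68 TPM for the mean of both), with quartiles of 1.99 and 8.71 TPM. That median lay at percentile 15.6 of the 12574 detected autosomal protein-coding genes, whose own median was 18.8 and 14.9 TPM in pups 1 and 3. A mean of 10 TPM or more was reached by 46 members, or 22.9%, against 63.5% of the detected protein-coding genes. At the low end, 51 members (25.4%) averaged under 2 TPM, against 6.12% of protein-coding genes. In all, 9.70% of autosomal lincRNA genes met the threshold, against 61.8% of autosomal protein-coding genes, and 970 lincRNA genes were at 0 in both pups.

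**Figure D1:**
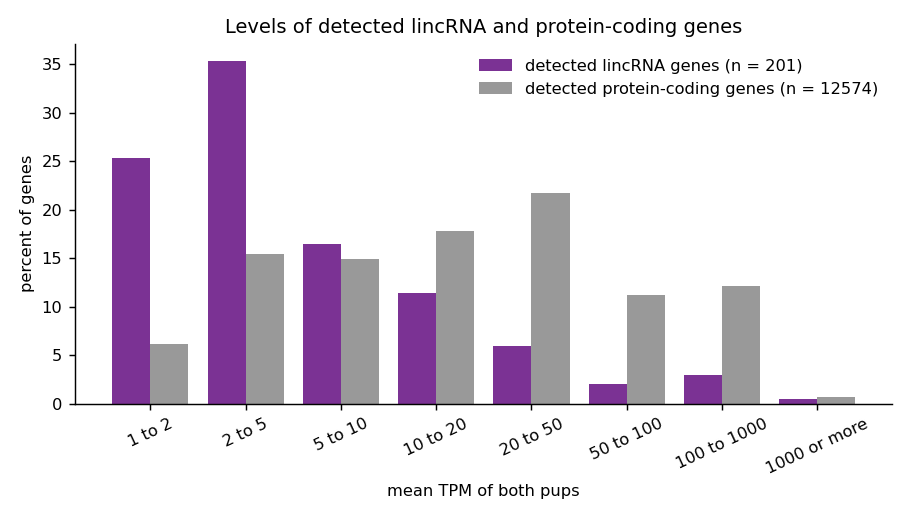
Percent of genes (y axis) in each class of mean TPM over both pups (x axis), for the 201 detected lincRNA genes (purple) and the 12574 detected autosomal protein-coding genes (grey). The lincRNA genes gather in the classes under 5 TPM and the protein-coding genes above 10 TPM.

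Together the members held 0.621% of TPM in pup 1 and 0.611% in pup 3 (0.616% ± 0.00665, SD, n = 2). The total rested on Gm42418 and Gm26917, which made up 59.7% of it in pup 1 and 61.3% in pup 3. Without them the share was 0.25% and 0.237% (0.243% ± 0.00932). Gm42418 had 2685.5 and 2890.2 TPM, and Gm26917 1022 and 855 TPM. Both lie side by side on chromosome 17 (mm10, plus strand), Gm26917 from 39843013 to 39846341 and Gm42418 from 39846958 to 39848788. RefSeq places an 18S ribosomal RNA-related pseudogene, Rn18s-rs5, there. It covers 1245 of the 1831 bases of Gm42418 (68.0%) and begins 12 bases past the end of Gm26917. Reads of ribosomal RNA could be assigned to such a copy, so these values are uncertain, and their part in the TPM of these genes was not tested.

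Below these, 9 more members had a mean of 50 TPM or more. Gm10076, which RefSeq lists as a pseudogene, had 170 and 219 TPM, and Gm7292 139 and 77 TPM. 1810058I24Rik had 90.8 and 101 TPM; it is listed as protein-coding in RefSeq, as are Tmem250-ps (43.4 and 39.4 TPM), Dbpht2, Gm6712 and Gm10479. Of 137 members with a RefSeq symbol match, 128 were long noncoding there, 5 protein-coding and 4 pseudogenes. How reads shared with near-identical copies were assigned is not stated, so the levels of the pseudogene-like members are uncertain. 2900097C17Rik, the mouse counterpart of NORAD, an RNA known in human cells for sequestering Pumilio proteins, had 114 and 63.8 TPM. Gm5914 had 80.2 and 103 TPM and shares exon bases with Agrp.

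The remainder of the 20 highest lay under 50 TPM. 1700020I14Rik had 48.1 and 29.5 TPM and 1110015O18Rik 35.5 and 24.2 TPM, both higher in pup 1. 5430416N02Rik had 37.4 and 47.8 TPM, 2900079G21Rik 35.1 and 43.1 TPM and 2010320M18Rik 31.6 and 36.2 TPM, all higher in pup 3. Gm2694, a lincRNA gene overlapping Cbln1, which encodes a synapse-organising secreted protein, had the closest pups of these, at 27.9 TPM in both. Of the 20, 6 hosted a small RNA.

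**Figure D2:**
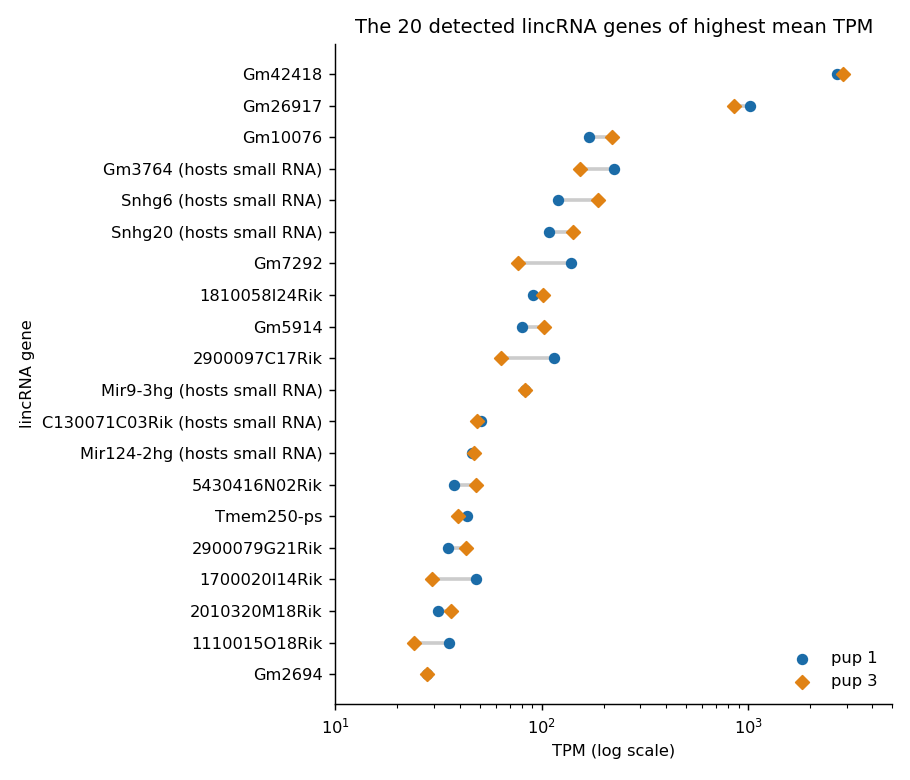
TPM (x axis, log scale) of the 20 members of highest mean TPM (y axis) in pup 1 (blue circles) and pup 3 (orange diamonds), with the 6 small RNA hosts marked. Gm42418 and Gm26917 stand above all others, and Gm7292 and 2900097C17Rik show wide gaps between the pups.

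The counts behind these levels varied. The median expected count was 141 in pup 1 and 130 in pup 3. In both pups 113 members had 100 counts or more, while 46 had under 50 in a pup, with a minimum of 7. Just inside the threshold stood Mirt1 (1.34 and 1 TPM), Gm27042 (1.09 and 1), 2810405F17Rik (1.9 and 1.01), Gm14168 (1.42 and 1.02) and Gm19705 (1.45 and 1.02). Just outside stood Gm26853 (2.41 and 0.99 TPM), C230014O12Rik (1.32 and 0.98), Gm4425 (0.95 and 1.03), AW121686 (1.34 and 0.95) and G630018N14Rik (1.42 and 0.94). Membership at this edge turns on a few hundredths of a TPM.

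Despite their name, detected lincRNA genes lay close to protein-coding genes. The median distance from the gene body of a member to that of the nearest protein-coding gene was 645 bases, against 28688 bases for lincRNA genes below 1 TPM in both pups. An overlap was found for 61 members (30.3%) against 12.7%, and a distance under 10 kb or an overlap for 135 members (67.2%) against 34.9%. Beyond 100 kb lay 19 members (9.45%) against 24.3%. Of the 61 overlaps, 55 were with a gene on the opposite strand and 6 with one on the same strand. Exons of 49 members (24.4%) overlapped coding exons on the opposite strand, against 7.17% of the undetected genes, and exons of 4 members overlapped those on the same strand. Whether counting used strand is not stated, so reads of such pairs may not be told apart. The members that overlap a coding gene had a median of 2.94 TPM, and those that do not 4.11 TPM.

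**Figure D3:**
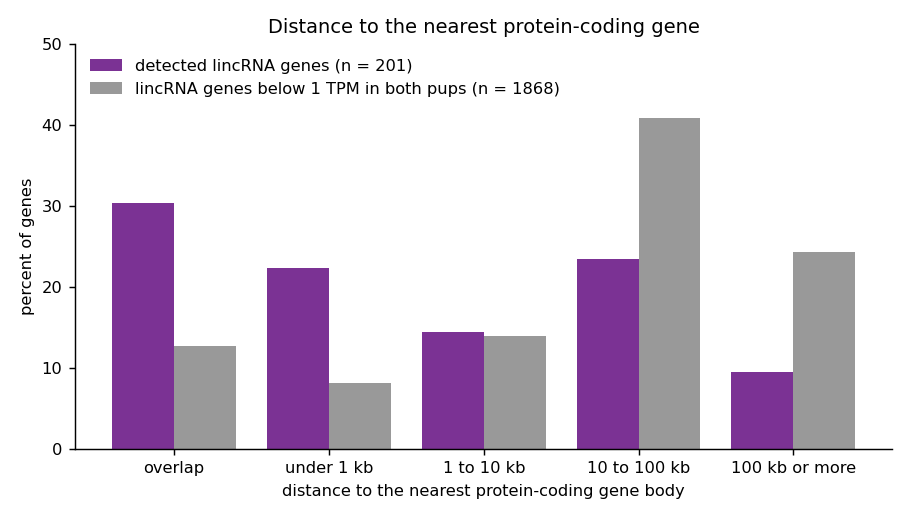
Percent of genes (y axis) by distance to the nearest protein-coding gene body (x axis) for the 201 detected lincRNA genes (purple) and the 1868 lincRNA genes below 1 TPM in both pups (grey). Overlap and distances under 1 kb take 30.3% and 22.4% of the detected genes, against 12.7% and 8.14% of the others.

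The nearest protein-coding genes of the members were themselves mostly expressed. Their median was 16 and 8.93 TPM in pups 1 and 3 (12.2 TPM for the mean), against 9.73 and 6.56 TPM (8.17) for those of undetected lincRNA genes and 4.38 TPM over all autosomal protein-coding genes. The medians of members and undetected genes differ by less than the gap between the pups for the members. Both medians were lower in pup 3, however, and that of the members was the higher in each pup. For 162 members (80.6%) the neighbour had 1 TPM or more in both pups, against 72.5% for undetected lincRNA genes. Within each pair, 129 members were below their neighbour in both pups, 63 above it in both, and 9 changed side. The 201 members had 193 distinct neighbours.

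The members furthest above their neighbour lie beside genes at or near 0. The nearest coding gene of Gm42418 and Gm26917 was Esp38, an exocrine gland peptide, that of Mir124-2hg was Cypt12, and that of Dbpht2 was Gm11042; all were listed at 0 in both pups. Gm3764, whose neighbour 12915 bases away is Rhbg, an ammonium transporter gene, had 224 and 153 TPM against 0.18 and 0.21 TPM for Rhbg (log2 of the TPM + 0.1 ratio 9.30 ± 0.49, SD, n = 2). At the other end stood low members beside abundant genes. Gm6297 overlaps Dnaja1, a co-chaperone gene, on the opposite strand and had 2.35 and 2.19 TPM against 569 and 508 TPM for Dnaja1 (log2 ratio -7.83 ± 0.05). A230006K03Rik, with 3.36 and 1.14 TPM, lay 987777 bases from the imprinted gene Snrpn (737 and 566 TPM), so nearest does not always mean near.

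A divergent arrangement, in which a lincRNA and a protein-coding gene start within 1 kb of each other on opposite strands and point away, was found for 41 members (20.4%), against 121 (6.48%) of the undetected lincRNA genes. Their start sites were 8 to 972 bases apart (median 168), and 27 of 41 were within 250 bases. The protein-coding partner had 1 TPM or more in both pups in 39 of 41 pairs. For undetected lincRNA genes it did in 96 of 121 pairs. In 31 pairs the lincRNA was below its partner in both pups and in 8 above it, and the median log2 ratio of lincRNA to partner was -1.62 and -1.42 in pups 1 and 3 (-1.51 ± 0.14 for the mean). The medians were 3.57 TPM for the lincRNA genes and 12.1 TPM for their partners. Divergent members had levels like the others, which had a median of 3.68 TPM.

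Among the 10 pairs with the highest lincRNA, 6 had the lincRNA below its partner in both pups and 4 above it. 2010320M18Rik had 31.6 and 36.2 TPM against 127 TPM in both pups for Pik3r2, a regulatory subunit of phosphoinositide 3-kinase (log2 ratio -1.91 ± 0.14). 5031425E22Rik had 18.4 and 15.5 TPM against 44.8 and 26.4 TPM for Kmt2e, a chromatin regulator. Gm5468 had 16.2 and 13.2 TPM against 447 and 404 TPM for Basp1, an abundant growth cone protein, the widest gap of the 10 (log2 ratio -4.85 ± 0.10). 2210008F06Rik with Ankrd13b had a log2 ratio of -1.70 ± 0.21, and Gm17586 with the small Maf factor gene Mafg -1.06 ± 0.44.

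Above their partners stood 4 of these 10. Lhx1os had 20.4 and 11.2 TPM against 4.62 and 2.11 TPM for Lhx1, a LIM homeobox factor of the diencephalon and other sites (log2 ratio 2.23 ± 0.16). Both genes of that pair were higher in pup 1, as were 80.3% of all detected genes. 5033430I15Rik had 15.6 and 17.2 TPM against 10.9 and 6.1 TPM for the ataxin gene Atxn1, AI480526 10.8 and 6.58 TPM against 5.25 and 3.95 TPM for the histone methyltransferase gene Setd1b, and Gm5113 8.19 and 6.04 TPM against 6.28 and 5.05 TPM for the zinc finger gene Zfp146. Further pairs with the lincRNA above its partner, chosen after their values were seen, were 2810032G03Rik with Klhl29 (6.5 and 6.58 against 2.36 and 1.64 TPM), Gm17102 with AI987944 (6.13 and 6.12 against 4.49 and 3.52 TPM), A930029G22Rik with Akain1 (2.85 and 2.82 against 0.55 and 0.53 TPM) and 5930412G12Rik with the Wnt receptor gene Fzd10 (4.45 and 2.69 against 1.9 and 0.9 TPM). The pair furthest apart was Gm13830, at 1.75 and 2.91 TPM, with the dynein light chain gene Dynll1, at 1026 and 1176 TPM.

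**Figure D4:**
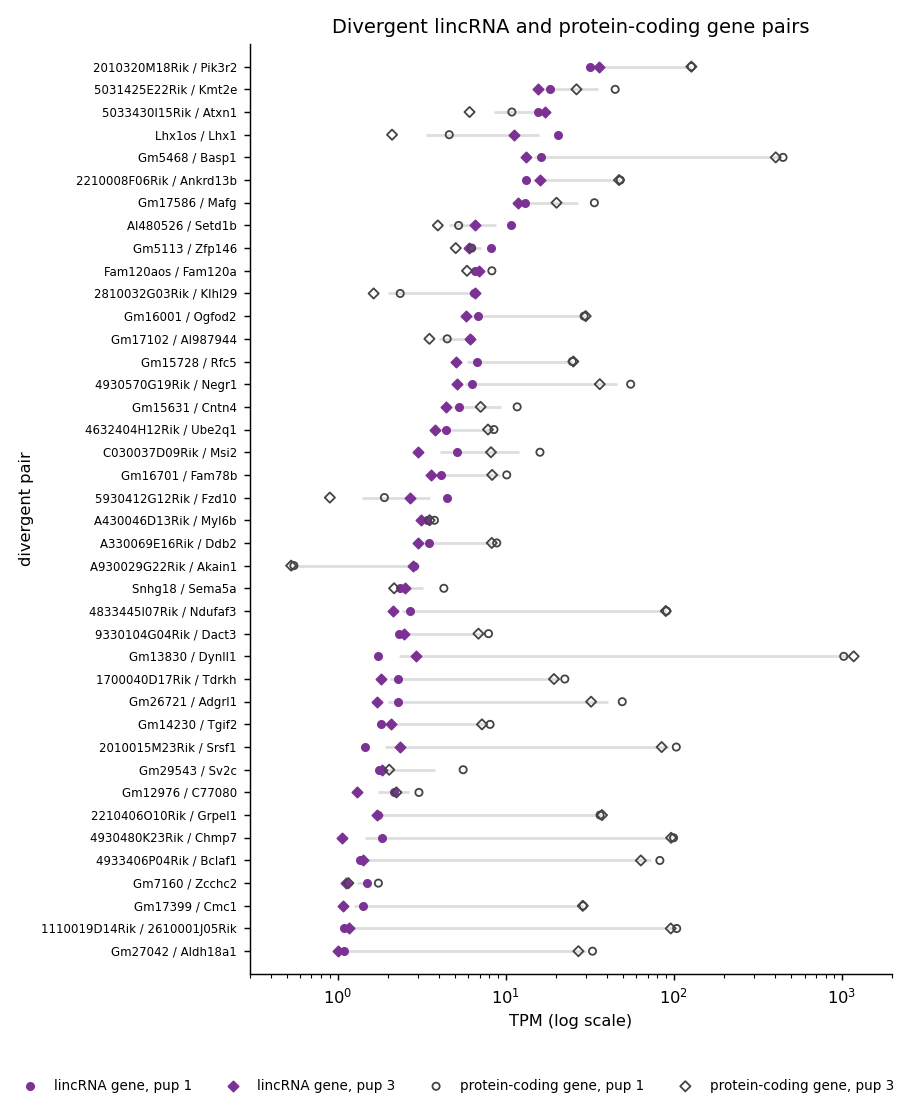
TPM (x axis, log scale) of the lincRNA gene (filled purple) and its divergent protein-coding partner (open grey) in pup 1 (circles) and pup 3 (diamonds) for 40 of the 41 pairs, ordered by the mean TPM of the lincRNA gene, with a line joining the means. In 30 of the pairs drawn both lincRNA points lie left of those of the partner, and in 8, Lhx1os with Lhx1 among them, they lie right of them.

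Promoter sequence is shown for a pair on each side, 2010320M18Rik with Pik3r2 and Lhx1os with Lhx1. Each window is the RefSeq promoter of the protein-coding gene (GRCm38.p6, 250 bases before to 50 after its start), read on that gene's strand, with the bases between and including both annotated starts in capitals.
Pik3r2, chr8:70776663-70776962, minus strand: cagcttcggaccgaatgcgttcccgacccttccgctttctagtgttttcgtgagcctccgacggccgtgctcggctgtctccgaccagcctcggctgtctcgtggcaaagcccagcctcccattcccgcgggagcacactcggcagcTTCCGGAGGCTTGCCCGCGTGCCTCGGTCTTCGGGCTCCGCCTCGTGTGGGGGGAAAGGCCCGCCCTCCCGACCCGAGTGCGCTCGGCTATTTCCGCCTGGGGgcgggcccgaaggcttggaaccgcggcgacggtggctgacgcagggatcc
Lhx1, chr11:84525485-84525784, minus strand: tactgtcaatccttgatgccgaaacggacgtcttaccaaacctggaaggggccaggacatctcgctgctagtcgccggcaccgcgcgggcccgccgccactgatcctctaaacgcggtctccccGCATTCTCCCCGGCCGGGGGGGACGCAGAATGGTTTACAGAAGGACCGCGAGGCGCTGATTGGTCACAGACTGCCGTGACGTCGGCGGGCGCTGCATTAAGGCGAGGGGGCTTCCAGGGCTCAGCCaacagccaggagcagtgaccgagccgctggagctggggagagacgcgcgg

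The starts lie 102 bases apart in the Pik3r2 window and 125 in the Lhx1 window. The Pik3r2 window holds 36 CG dinucleotides and the Lhx1 window 31, against a median of 7 over all 32851 RefSeq windows. As many or more are held by 6.23% and 10.6% of windows. Those windows are not limited to protein-coding genes, as 106 members also have one. TATAA was in neither window on either strand, and was in 24.9% of all windows. For 19 of the 41 pairs a window covered both starts, so no count over all 41 is given. These 19 windows held 11 to 51 CG dinucleotides, with a median of 29.

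The members' transcripts were simpler than those of protein-coding genes. In the deposited transcript tables the 201 members had 434 transcripts, and 106 members (52.7%) had 1, against 83.0% of undetected lincRNA genes and 27.2% of detected protein-coding genes. The leading transcript, the one of highest TPM, had a median of 2 exons and 1187 bases, against 2 exons and 819.5 bases for undetected lincRNA genes and 8 exons and 2561 bases for protein-coding genes. It had 1 exon in 26 members (12.9%), against 7.04% and 2.76%. The median GC content of these transcripts was 48.6%, against 46.97% and 51.0%. The hexamer AATAAA, the usual polyadenylation signal, was present on the transcript's strand within the last 50 bases in 45.5% of the members, 34.2% of undetected lincRNA genes and 60.9% of protein-coding genes. For undetected genes, the share with 1 transcript is over all 1868. Their values for the leading transcript are over the 1734 with 1 transcript or a transcript above 0 TPM. The other 134 had several transcripts that were all at 0 and so no leading one. Annotated ends may be incomplete.

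Of the 95 members with 2 or more transcripts, in 82 (86.3%) the same transcript led in both pups, against 91.3% of protein-coding genes. The leading transcript held a median of 70.2% and 76.6% of its gene's TPM in pups 1 and 3 (72.5% for the mean), and 70.8% in protein-coding genes. In 21 members it held 90% or more in both pups, and in 11 under 50% in both. The shares are the authors' model estimates, since overlapping transcripts share reads.

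Among the highest members with several transcripts, Gm26917-202 held 99.9% ± 0.05 and Snhg20-202 97.2% ± 0.54 (SD, n = 2). Gm7292-201 and 2900097C17Rik-202 held 100% in both pups. Snhg6-203 held 59.3% and 63.2% in pups 1 and 3, with Snhg6-204 second at 30.4% and 30.1%. Gm5914-201 held 60.9% and 59.5%, and 1810058I24Rik-201 85.0% and 88.1%. Mir9-3hg-201 held 46.8% and 46.4%, and C130071C03Rik-201 67.4% and 72.5%. Gm3764 had 11 transcripts, and its leading one was Gm3764-207 in pup 1 (27.9%, against 26.3% in pup 3) and Gm3764-203 in pup 3 (28.2%, against 17.9% in pup 1).

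The leading transcript differed between the pups in 13 members. Mir124a-1hg was led by Mir124a-1hg-202 in pup 1, where it held 44.9% (30.9% in pup 3), and by Mir124a-1hg-203 in pup 3, where it held 47.1% (18.4% in pup 1). 2610035D17Rik-201 held 63.3% and 34.3%, and 2610035D17Rik-202 36.7% and 40.4%. The change was slight in Gm20754, where Gm20754-202 held 54.8% and 49.4%, and in Gm15728, where Gm15728-201 held 54.2% and 49.7%. The median gap between the pups in the share of the leading transcript was 5.2 percentage points. The widest was 52.1 points, in Gm19705, which stood just inside the threshold.

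**Figure D5:**
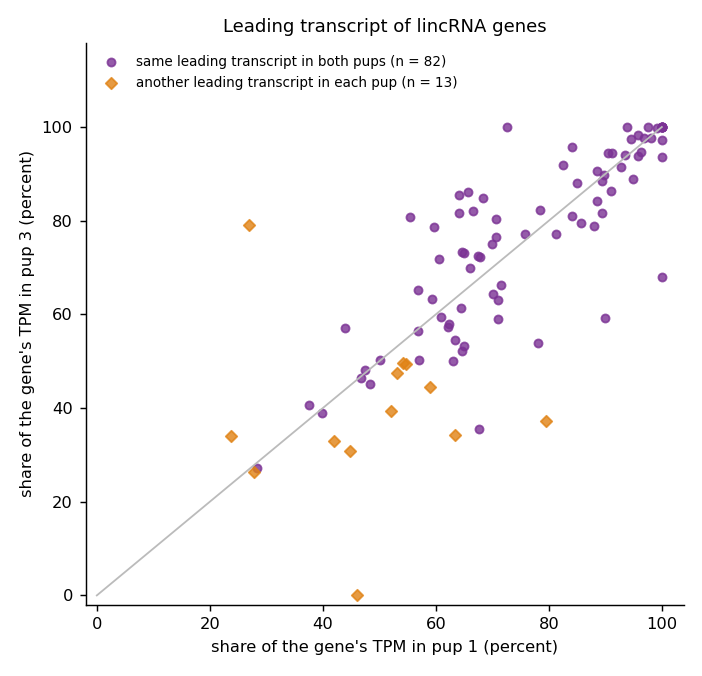
Share of the gene's TPM held by its leading transcript in pup 1 (x axis, percent) and pup 3 (y axis, percent) for the 95 members with 2 or more transcripts, with equal shares on the line. The 82 members led by the same transcript in both pups (purple) reach up to 100%, and the 13 led by another in each pup (orange) lie below 80% in both.

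The pups differed little in most members. TPM was higher in pup 1 for 142 members (70.6%) and lower for 59, while 80.3% of all detected genes were higher in pup 1. The detected genes were thus shifted as a set. The median log2 ratio of pup 1 over pup 3 was 0.26 over 14389 genes and 0.20 over the members. Relative to that shift, 84 members were above and 117 below. Within 1.5-fold of each other were 163 members (81.1%), and 81.7% of detected protein-coding genes. A difference of 2-fold or more with deposited intervals that do not overlap was found in 5 members (2.49%), against 3.29% of all genes with 1 TPM or more in both pups. All 5 were higher in pup 1, as were 3.2% of all genes, while 0.0903% of all genes were lower. Relative to the shift 4 members differed, against 1.26% of all genes. Of these, 3 (1.49% of the members) were higher in pup 1, against 1.04% of all genes. In the other direction 1 (0.498%) was lower, against 0.222% of all genes. That member was 2700046A07Rik, with 1.07 and 1.95 TPM, named after its values were seen. After division by TMM factors or DESeq2 size factors, which scale the libraries to each other, 3 members differed in either case, against 1.92% and 1.85% of all genes.

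The 5 members were Gm26699, with 7.64 and 2.02 TPM in pups 1 and 3 (log2 ratio 1.87), Gm26848, with 5.41 and 1.75 TPM (1.57), A230006K03Rik, with 3.36 and 1.14 TPM (1.48), Dubr, with 10.6 and 4.85 TPM (1.11), and Gm26803, with 3.09 and 1.49 TPM (1.00). Relative to the shift Gm26699, Gm26848 and A230006K03Rik were still called, and Dubr and Gm26803 were not. Dubr, known in mouse for promoting muscle differentiation, was the highest of the 5. Gm26803 lies nearest to the transcription factor gene Mef2c, which had 150 and 186 TPM and was thus higher in pup 3. Gm26699 overlaps Luc7l2 on the opposite strand, with exons over coding exons of that strand, and Luc7l2 had 22.7 and 10.0 TPM. Gm26848 overlaps Dynlt1a in the same way, with 198 and 213 TPM for Dynlt1a. Whether reads of these overlapping pairs were told apart was not tested.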

How the data were processed

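Per the labels, total RNA of single forebrains was extracted with the mirVana kit, spike-ins were added, and a manual for SMARTer low-input libraries is linked. Per the deposited notes, the authors used mm10 and GENCODE M4. Not given in the sources used here are the aligner, quantifier, strand use and level of the TPM interval. Per the file headers, the deposited tables give expected counts (estimated counts that need not be whole), TPM, posterior mean TPM, FPKM, bounds of a TPM interval, and the share of each transcript in its gene as a percent (IsoPct). GENCODE M21 (GRCm38, hence equal coordinates) gave symbols, classes and positions, with identifiers matched without version. One symbol is shared by 2 members.

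Levels are deposited TPM, and nothing was renormalized. Ratios used TPM + 0.1 and so understate changes at low TPM. Pups differed where the ratio of pup 1 over pup 3 reached 2-fold and the intervals did not overlap. The nearest protein-coding gene was taken by gene body, ties by 5′ end. TMM factors (edgeR 4.0.16) and size factors (DESeq2 1.42.0, R 4.3.3), on expected counts rounded to whole numbers, were alternatives. Remaining work ran in Python 3.11.15 with pandas 2.3.3, numpy 2.4.6 and matplotlib 3.10.9.

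The members and lists were chosen with earlier results of these data known. Named genes were the 20 highest members, the 5 genes on each side of the threshold, list members, members that differ, the 10 divergent pairs of highest lincRNA TPM, the 5 members furthest above and below their neighbour, and leading transcripts of the 10 highest members with several transcripts and of 5 whose leading transcript differs; others are said to be chosen after seeing values. A few genes under this rule are not reported here. Sequences are from RefSeq (microRNAs, promoters) and the GENCODE M21 transcripts. Alternatives were other thresholds, posterior mean TPM, FPKM, each pup alone, other pseudocounts, folds, scalings, windows and neighbours, and leaving out overlapping, short or very high members.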

Additional observations from a re-analysis of the deposited data

How the results depend on the processing

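Of 69 recomputed values, 41 stayed within 1 SD between the pups, or within 1.5 times for a count. Only the divergent log2 ratio could change sign, and it stayed negative in its alternatives. The SD comes from the same 2 pups, so the values with a pup left out are not an independent check. A threshold of 2 TPM gave 132 members, 27 of them divergent, and 5 TPM gave 71, 16 of them divergent. In the main setting 41 of 201 were divergent, so the divergent count fell along with the number of members. At 2 and 5 TPM, 2 and 0 members differed between the pups, against 10 at 0.5 TPM. Of all genes at 0.5, 2 and 5 TPM, 3.66%, 2.71% and 1.74% did. At 0.5, 2 and 5 TPM the median of the members was 2.27, 6.10 and 14.6 TPM and its percentile 13.8, 18.2 and 28.1. At 5 TPM the same transcript led in both pups in 40 of the 45 members with several transcripts (88.9%), against 86.3% in the main setting. It did in 40 of the 48 with 3 or more transcripts (83.3%), where the median leading share was 64.0%. The median was 2.39 in FPKM. By expected counts the members' share was 0.693%, and without Gm42418 and Gm26917, an alternative chosen after seeing the data, 0.243% of TPM. Members that differ numbered 3 with a pseudocount of 1 TPM (1.63% of all genes), 26 at 1.5-fold (16.3%), 1 at 3-fold (Gm26699, 0.306%), and 3 after division by TMM factors (1.92%) or by DESeq2 size factors (1.85%). Relative to the median ratio, also added later, 4 differed (3 higher and 1 lower in pup 1), against 1.26% of all genes. With a pseudocount of 1 TPM the divergent log2 ratio was -1.30.

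With each pup left out in turn, the members numbered 211 to 249, their median was 3.02 to 3.09 TPM, its percentile 13.9 to 15.7, their share of TPM 0.613% to 0.628%, the neighbour median 9.77 to 15.6 TPM, the divergent log2 ratio -1.62 to -1.42 and the leading share 70.2% to 76.6%. No paired analysis was possible because the libraries form 1 group. Low counts limit the transcript shares and the calls between pups of members near 1 TPM, and intervals cover the quantification, not the animals. Nothing in the labels beyond the pup numbers shows that the libraries came from separate animals, and the spread between them may be partly technical.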

Other observations

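Outside the autosomes, 5 lincRNA genes on the X and Y chromosomes had 1 TPM or more in both pups and were not described. Of the 201 members, 91 carry a symbol of Gm and a number, 81 a symbol ending in Rik and 29 another symbol. Members with 1 exon in the leading transcript had a median of 4.94 TPM (26 genes), and those with 2 or more exons 3.46 TPM. Every autosome held members, from 4 on chromosomes 16 and 19 to 22 on chromosome 5.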
